A study of Mus musculus with 16 samples.

Results

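The interferon gamma and CXCR3 chemokine axis was described here by 7 genes, taken from the count table by symbol: Ifng, Ifngr1, Ifngr2, Cxcl9, Cxcl10, Cxcl11 and Cxcr3. These are 7 of 19574 rows, and all 7 were among the 17122 genes that passed the filter on low counts. RNA-seq was carried out on whole colon tissue from mice with inflammation-associated tumors, with 1 tumor and 1 adjacent normal library per animal. The mutant group, labelled KO (Il23r fl/fl Foxp3 YFP-Cre, or Il23r ΔTreg), comprised 5 mice that lack the IL-23 receptor in FOXP3+ regulatory T (Treg) cells. The control group, labelled WT (Foxp3 YFP-Cre), comprised 3 mice, so both groups carry the Cre, which is driven by Foxp3. All mice were C57BL/6 males, 7 to 8 weeks old at the start. Each received azoxymethane (AOM) at 10 mg/kg and then 3 cycles of 5 days of 3.5% dextran sulfate sodium (DSS), each followed by 16 days of water. The tissue also holds the many cells in which the receptor gene was left intact, so deletion in Treg cells could not be checked here: Il23r was listed at 1 to 9 counts in KO tumors and 0 to 10 counts in WT tumors.

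Interferon gamma is a cytokine made mainly by Th1 cells, CD8 T cells and NK cells. It binds a receptor made of the IFNGR1 and IFNGR2 chains and signals to the nucleus to induce genes. Among the genes it induces are the chemokines CXCL9, CXCL10 and CXCL11, which attract cells bearing the receptor CXCR3, many of them Th1 and CD8 T cells. In C57BL/6 mice Cxcl11 does not encode a functional chemokine, and the RefSeq annotation lists it as a transcribed pseudogene.

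The sequences just upstream of Cxcl9 and Cxcl10 are shown because these 2 ligands varied together across all libraries. Each is the 250 bases before the annotated start in RefSeq (GRCm38.p6), at chr5:92328080-92328329 and chr5:92348890-92349139, both on the minus strand. They are written 5′ to 3′ on the strand of the gene. Capitals mark matches to the NF-kB-type motif GGGANTTCC in both genes and to the core of the interferon-stimulated response element (GAAA, any 2 bases, GAAA) in Cxcl10.
Cxcl9: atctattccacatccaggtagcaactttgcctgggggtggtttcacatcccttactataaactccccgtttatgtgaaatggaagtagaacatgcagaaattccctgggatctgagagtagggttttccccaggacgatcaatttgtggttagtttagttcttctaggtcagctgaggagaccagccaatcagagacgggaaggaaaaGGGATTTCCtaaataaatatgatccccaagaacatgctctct
Cxcl10: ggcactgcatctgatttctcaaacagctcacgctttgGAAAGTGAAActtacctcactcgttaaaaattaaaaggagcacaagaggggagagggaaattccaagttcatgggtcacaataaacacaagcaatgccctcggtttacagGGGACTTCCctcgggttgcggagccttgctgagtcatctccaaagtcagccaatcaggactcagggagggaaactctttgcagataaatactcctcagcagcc

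Both strands were searched. The NF-kB-type letters were found in 1.43% and the response element letters in 2.98% of all 32851 promoter windows of this length. A further motif, the gamma-activated sequence TTCNNNGAA, was found in 7.02% of all windows and, of the 6 members with a window, in Ifng alone. Of 17 windows matched to interferon gamma-induced genes other than the members, 9 held the response element letters and 6 the gamma-activated sequence letters. The 3 motifs do not overlap in the printed sequences, and a match describes letters, not binding.

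Library totals ranged between 34418067 and 60836474 counts, and the levels below are in CPM, a gene's counts relative to its library total, after TMM normalization, a scaling for library composition. Between 0.343% and 29.7% of counts were the ribosomal RNA gene Rn18s. The highest share was in the tumor library of mouse WT-2988, which also had the lowest TMM factor (0.670) and stood apart. The share was 6.62% to 29.7% in WT tumors, against 0.343% to 9.45% in KO tumors. In normal colon it was 2.39% to 19.4% in WT mice, against 0.661% to 9.10% in KO mice. TMM factors were 0.670 to 1.09 in WT tumors, against 1.06 to 1.18 in KO tumors. The part of these library differences in the genotype comparisons was not tested beyond the alternatives below. All WT mice shared 1 cage label and the KO mice had others, which means that cage and genotype cannot be told apart. Values run in the order of mice KO-2901, KO-2902, KO-2903, KO-2904 and KO-3883 for KO and WT-2988, WT-2989 and WT-2990 for WT. A gene was called where edgeR's quasi-likelihood test gave an adjusted p (Benjamini-Hochberg, over all genes tested) below 0.05 and the log2 fold change exceeded 1 in size. Fewer cells of a type and less RNA per cell cannot be told apart in whole tissue.

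**Figure D1:**
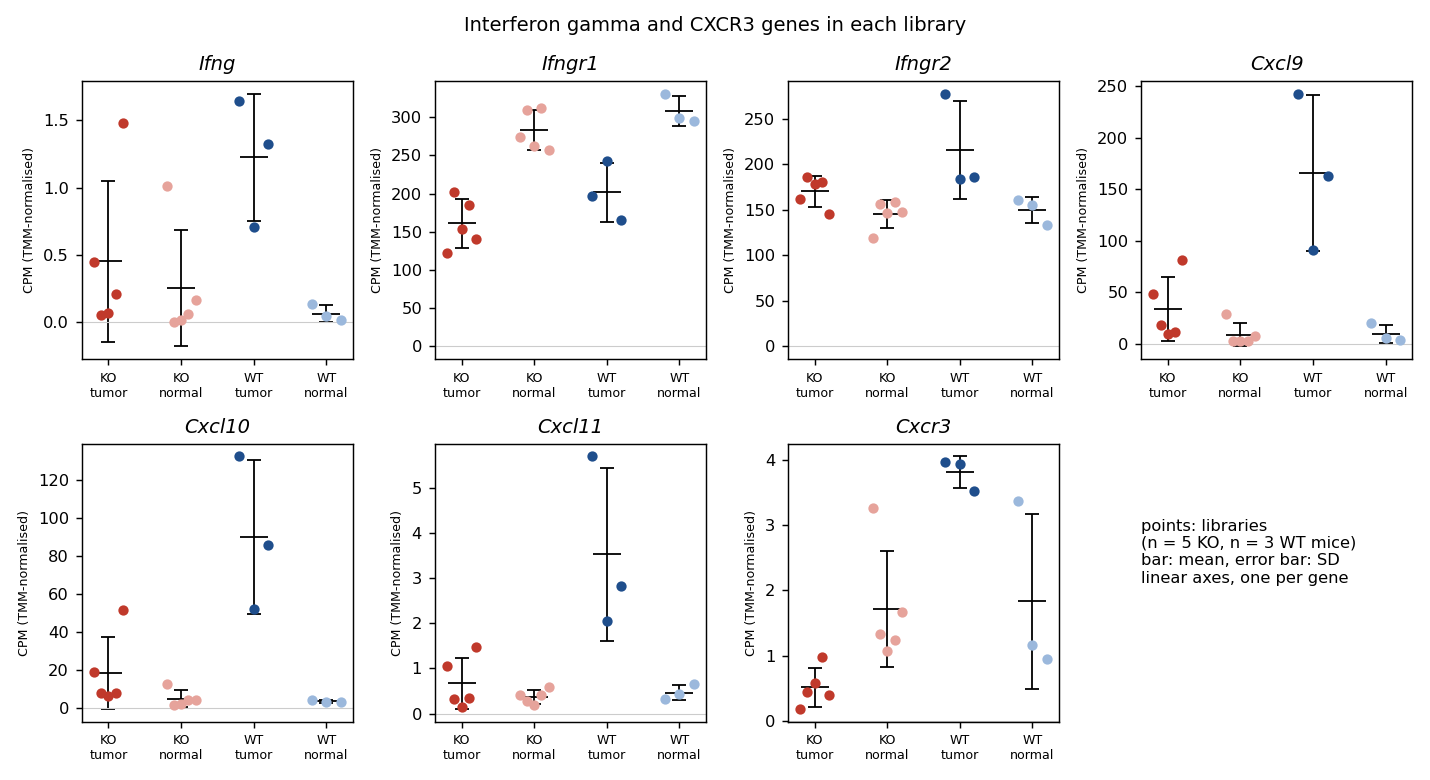
CPM (TMM-normalised, linear axis) of each of the 7 genes in KO tumor, KO normal, WT tumor and WT normal libraries. Points are libraries, and bars are the mean and SD (n = 5 KO and 3 WT mice). All 3 WT tumors sit above all 5 KO tumors for Cxcl9, Cxcl10, Cxcl11 and Cxcr3, whereas Ifng overlaps.

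Transcripts of the cytokine itself were scarce, and WT tumors held more of them than the normal colon beside them. In KO tissue, Ifng measured 0.449, 0.0572, 0.0677, 0.215 and 1.48 CPM in tumors, against 1.01, 0, 0.0203, 0.0620 and 0.168 CPM in adjacent normal colon. In WT tissue it measured 1.64, 0.711 and 1.32 CPM in tumors, against 0.135, 0.0450 and 0.0195 CPM in adjacent normal colon. The WT groups did not overlap, whereas the KO groups did, with 1 KO tumor (mouse KO-3883) in the WT tumor range and 1 KO normal library (mouse KO-2901) far above the other 4. These levels rest on 3 to 66 counts in KO tumors, 0 to 47 in KO normal, 38 to 45 in WT tumors and 1 to 5 in WT normal libraries. The KO normal library at 0 allows up to 0.0561 CPM, counting error only.

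By edgeR, Ifng was 4.21 ± 1.56 higher in WT tumors on the log2 scale (SE, adjusted p = 0.0426). That call ended without any 1 of the mice WT-2988, WT-2989 and WT-2990 (adjusted p = 0.105, 0.107 and 0.187), without mouse KO-2904 (0.0517), and without only the tumor library of mouse WT-2988 (0.0877). In KO mice the difference was 0.84 ± 1.03 (adjusted p = 0.529), and it was -0.43 without mouse KO-3883. KO tumors differed from WT tumors by -1.43 ± 1.12 (adjusted p = 0.445, 95% interval -3.80 to 0.94), so no genotype difference in Ifng was detected with these mice and counts.

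Of the receptor chains, Ifngr1 was lower in tumors of both genotypes and Ifngr2 was higher in WT tumors, by less than the fold threshold. Ifngr1, the ligand-binding chain, measured 123, 202, 154, 185 and 140 CPM in KO tumors, against 273, 309, 263, 312 and 257 CPM in KO normal colon. In WT mice Ifngr1 measured 196, 242 and 166 CPM in tumors, against 331, 298 and 294 CPM in normal colon. Tumors and normal tissue did not overlap in either genotype, and all tumors were lower. The log2 difference was -0.81 ± 0.15 in KO mice (SE, adjusted p = 0.000317) and -0.61 ± 0.19 in WT mice (adjusted p = 0.0182), which passed the p threshold but not the fold threshold.

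Ifngr2, the chain needed for signaling, measured 161, 186, 179, 181 and 145 CPM in KO tumors, against 119, 156, 147, 158 and 148 CPM in KO normal colon. In WT mice it measured 278, 184 and 186 CPM in tumors, against 161, 155 and 133 CPM in normal colon. The WT groups were separate and the KO groups overlapped. The log2 difference was 0.53 ± 0.17 in WT mice (SE, adjusted p = 0.0251), under the fold threshold, and 0.23 ± 0.13 in KO mice (adjusted p = 0.177). Between KO and WT tumors the differences were -0.33 ± 0.17 for Ifngr1 and -0.34 ± 0.15 for Ifngr2, with adjusted p = 0.276 and 0.231.

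The ratio of the chains separated tumors from normal tissue in both genotypes. The count ratio of Ifngr2 to Ifngr1 was 0.922 to 1.32 in KO tumors, against 0.436 to 0.576 in KO normal colon. In WT mice it was 0.758 to 1.42 in tumors, against 0.453 to 0.521 in normal colon. The ratio was higher in the tumor in 8 of 8 mice, by 1.09 on the log2 scale on average. This ratio was chosen after its values were seen and is given without a test.

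Among the ligands, Cxcl9, an interferon gamma-induced chemokine of macrophages and other cells, was raised in WT tumors. Cxcl9 measured 48.5, 18.4, 9.501, 11.99 and 81.4 CPM in KO tumors, against 29.0, 2.64, 3.22, 2.56 and 7.82 CPM in KO normal colon. In WT mice it measured 243, 91.4 and 163 CPM in tumors, against 19.96, 6.03 and 3.99 CPM in normal colon. Every mouse had more Cxcl9 in its tumor than in its normal tissue, but the KO groups overlapped, since the normal library of mouse KO-2901 was above 3 KO tumors. The log2 difference was 4.06 ± 1.08 in WT mice (SE, adjusted p = 0.00841, and 0.0634 without mouse WT-2990). In KO mice it was 1.91 ± 0.77 (adjusted p = 0.0524), which missed the threshold. With the mouse as a replicate block it was 2.14 (adjusted p = 0.00146), and without mouse KO-2901 it was 2.90 (adjusted p = 0.00626). It was also called by DESeq2 (adjusted p = 0.0342) and limma (adjusted p = 0.0221), and without only the tumor library of mouse WT-2988 (1.97, adjusted p = 0.0481).

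Cxcl10, which is induced by both type I and type II interferons, gave the smallest p of the members in WT mice. It measured 19.0, 7.94, 6.77, 8.37 and 51.8 CPM in KO tumors, against 13.0, 1.91, 2.31, 4.46 and 4.39 CPM in KO normal colon. In WT mice Cxcl10 measured 133, 52.3 and 86.0 CPM in tumors, against 4.72, 3.20 and 3.45 CPM in normal colon. All 8 mice had more in the tumor, and the WT groups were far apart. Cxcl10 rose by 4.58 ± 0.87 in WT tumors (log2, SE, adjusted p = 0.000985) and by 1.85 ± 0.60 in KO tumors (adjusted p = 0.0195). The KO call rested on mouse KO-3883, without which the difference was 0.96 (adjusted p = 0.181).

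Cxcl11 transcripts were sparse. They measured 1.05, 0.324, 0.152, 0.334 and 1.48 CPM in KO tumors, against 0.410, 0.280, 0.183, 0.413 and 0.589 CPM in KO normal colon. In WT mice Cxcl11 measured 5.69, 2.05 and 2.82 CPM in tumors, against 0.323, 0.428 and 0.643 CPM in normal colon. WT tumors stood above all other libraries. The log2 difference was 2.90 ± 0.72 in WT mice (SE, adjusted p = 0.00570, and 0.0801 without mouse WT-2988) and 0.83 ± 0.54 in KO mice (adjusted p = 0.230). Without mice KO-2901 and KO-3883 the KO value was -0.13.

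Cxcl10 and Cxcl11 lie within the span of Art3, on the opposite strand, and whether counting used strand is not given in the sources used here. Overlap was checked for the gene spans only, not for exons, so whether reads from Art3 are shared with Cxcl10 or Cxcl11 was not tested. Art3 was at 1.75 to 6.98 CPM in KO tumors, against 13.3 to 22.5 CPM in KO normal colon. In WT mice it was at 4.96 to 6.84 CPM in tumors, against 15.4 to 17.02 CPM in normal colon, lower in tumors where Cxcl10 was higher.

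Cxcr3, the receptor of these chemokines, did not follow its ligands in KO tumors. It measured 0.183, 0.438, 0.576, 0.977 and 0.403 CPM in KO tumors, against 3.26, 1.33, 1.07, 1.24 and 1.67 CPM in KO normal colon. In WT mice Cxcr3 measured 3.97, 3.93 and 3.53 CPM in tumors, against 3.37, 1.17 and 0.954 CPM in normal colon. These levels rest on 13 to 41 counts in KO tumors, 53 to 151 in KO normal, 92 to 243 in WT tumors and 49 to 125 in WT normal libraries. All KO tumors were below all KO normal libraries and all WT tumors, and 1 of them (0.977 CPM) was just above the lowest WT normal library. Cxcr3 fell in KO tumors by 1.74 ± 0.45 on the log2 scale (SE, adjusted p = 0.00534). Among KO mice of 1 cage label (without mice KO-2901 and KO-3883) the difference was -0.88 (adjusted p = 0.180). In WT mice it was 1.06 ± 0.56 (adjusted p = 0.145, 95% interval -0.13 to 2.26).

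**Figure D2:**
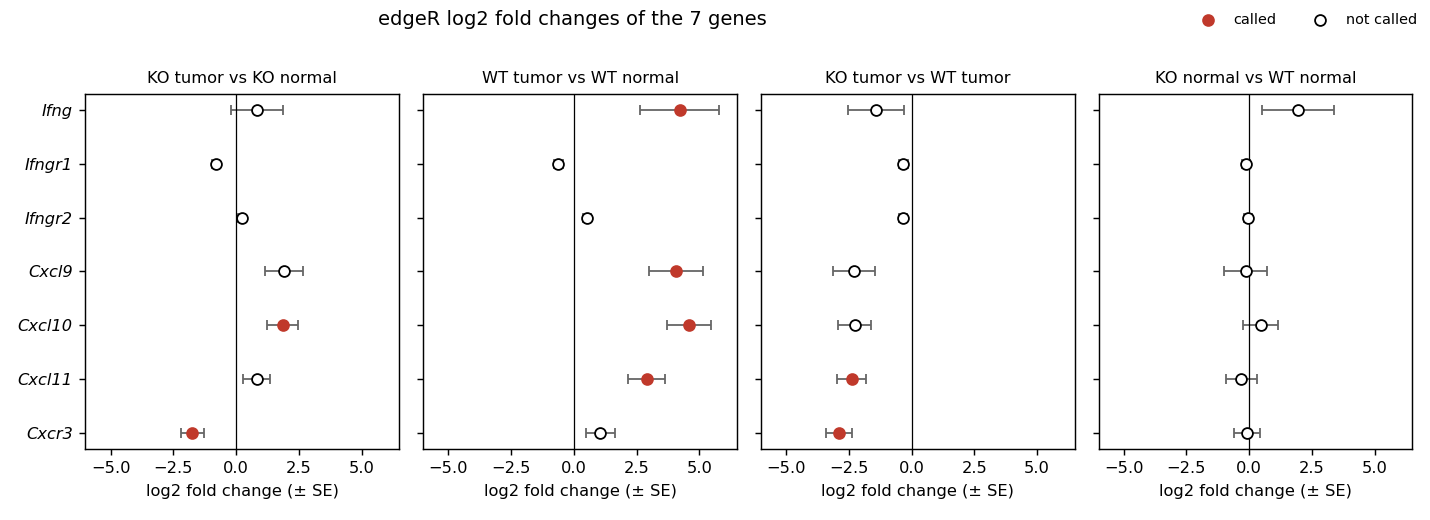
edgeR log2 fold changes (horizontal axis, ± SE) of the 7 genes in 4 comparisons, with called genes filled. Between tumor and normal tissue 2 genes were called in KO mice and 4 in WT mice, between KO and WT tumors 2 were called, both lower, and between the normal tissues none was.

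Counted over the axis, 2 of 7 genes were called in KO tumors against KO normal colon (Cxcl10 higher, Cxcr3 lower), beside 25.7% of all genes tested (9.53% higher and 16.1% lower). In WT tumors against WT normal colon 4 of 7 were called, all higher (Ifng, Cxcl9, Cxcl10 and Cxcl11), beside 25% of all genes called (12.1% higher and 12.9% lower). Tumor and normal tissue did not overlap for 2 of the 7 genes in KO mice, both lower in tumors, beside 20% of all genes tested with tumors lower and 17.2% with tumors higher. In WT mice 6 of 7 were separate with tumors higher, beside 23.4%, and Ifngr1 with tumors lower, beside 25.4%. The WT count of calls was 2 without mouse WT-2988 or mouse WT-2990, and the KO count was 1 without mouse KO-3883.

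The genotypes were then compared within tumors. All 3 WT tumors were above all 5 KO tumors for 4 of the 7 genes, Cxcl9, Cxcl10, Cxcl11 and Cxcr3, while 7.09% of all genes tested showed such a separation with KO lower and 9.34% with KO higher. The margin was narrow for the ligands in mouse KO-3883, whose Cxcl9 was 81.4 CPM and whose Cxcl10 was 51.8 CPM, against 91.4 and 52.3 CPM in the lowest WT tumor. Of the 7 genes 2 were called, both lower in KO tumors, beside 1.73% of all genes called (0.146% higher and 1.58% lower). Cxcr3 was lower by 2.89 ± 0.50 on the log2 scale (SE, adjusted p = 0.0203) and Cxcl11 by 2.39 ± 0.59 (adjusted p = 0.0487).

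Cxcl10 differed by -2.27 ± 0.66 (SE, adjusted p = 0.0833) and Cxcl9 by -2.29 ± 0.84 (adjusted p = 0.158), which missed the threshold. With the mouse as a replicate block 4 genes were called, Cxcl9 (-2.69, adjusted p = 0.0395) and Cxcl10 (-2.66, adjusted p = 0.0180) being added. The number of all genes called with the block is not given here, so this higher count is no result about the members. Between genotypes this block was fitted by limma with a within-mouse correlation (0.127), not by edgeR, so tool and block changed together. Cxcl10 was also called by DESeq2 (-2.30, adjusted p = 0.0119) and limma (-2.64, adjusted p = 0.0428). The Cxcr3 difference stayed between -2.82 and -2.98 without mouse KO-2902, KO-2903 or KO-3883 or mouse WT-2988 or WT-2989, but its adjusted p was then 0.0580, 0.0517, 0.0603, 0.0603 and 0.0742. Without only the tumor library of mouse WT-2988 it was 0.0661. The Cxcl11 call ended without any 1 mouse (adjusted p between 0.0580 and 0.240), without only that library (0.221), and when scaled by library size (0.09999).

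Markers of several immune cells were also lower in KO than in WT tumors. Over all genes tested, 1.58% were called lower in KO than in WT tumors. The summed CPM of 7 T cell markers was 13.7 to 20.2 in KO tumors, against 55.8 to 88.2 in WT tumors, and 6 of the 7 were called lower in KO tumors. CD8 T cell markers summed to 1.43 to 4.59 CPM in KO tumors, against 10.7 to 18.4 CPM in WT tumors (2 of 2 called lower). Macrophage markers summed to 145 to 317 CPM, against 556 to 767 CPM (4 of 7 called lower), and 2 of 3 NK cell markers tested were called lower. None of the T cell, CD8 T cell or macrophage markers was at 0 in any library. B cell markers summed to 1.54 to 9.32 CPM, against 17.4 to 82.3 CPM (4 of 5 called lower, and 0 with the mouse as a replicate block). The count of these marker calls, 18 in all, was 0 without mouse KO-2902, KO-2903, KO-3883, WT-2988 or WT-2989 or without only the tumor library of mouse WT-2988. There were 3 with library size scaling, 6 with KO mice of 1 cage label, and 21 by DESeq2. The part of these cells in the differences of the axis was not tested.

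Between tumor and normal tissue the same markers gave another picture. Of all genes tested, 9.53% were called higher and 16.1% lower in KO tumors, and 12.1% and 12.9% in WT tumors. T cell markers were called higher in WT tumors in 7 of 7 cases and CD8 T cell markers in 2 of 2, whereas in KO tumors 1 of 7 and 0 of 2 were called, the 1 being lower. NK cell markers (2 of 3), B cell markers (5 of 5), macrophage markers (3 of 7) and dendritic cell markers (2 of 5) were called lower in KO tumors, against 1 NK cell marker higher and 1 macrophage marker lower in WT tumors. The WT count of T cell markers was 3 without mouse WT-2989, 2 without WT-2990 and 4 without only the tumor library of mouse WT-2988. The NK cell calls in KO tumors ended without mouse KO-2901 or KO-2903 and with the replicate block, and that in WT tumors without any 1 WT mouse. Without mouse KO-2901 no T cell marker and 1 dendritic cell marker were called in KO tumors, and the WT macrophage call ended without mouse WT-2988, its tumor library alone or WT-2990. In both genotypes all 5 neutrophil markers were higher in tumors, and all 5 smooth muscle markers and all 4 markers of enteric neurons and glia were lower, with 2 of the 4 called in WT mice without mouse WT-2990. Of 15 markers of the colon epithelium, endothelium and fibroblasts, edgeR called 0 in these comparisons, with 7 at an unadjusted p below 0.05 in KO and 3 in WT mice. In KO tumors DESeq2 called 1 of them, and limma and the block 2. Of 19 markers of dendritic cells, neutrophils, smooth muscle and enteric neurons and glia, edgeR called 0 between KO and WT tumors, with 3 at an unadjusted p below 0.05, and DESeq2 called 1. The smooth muscle markers summed to 139 to 1150 CPM in KO tumors, against 5288 to 7621 CPM in KO normal colon, and the groups were far apart. The part of tissue makeup in the differences between tumor and normal tissue was not tested.

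Set against the T cell markers, Cxcr3 was at 1.33 to 4.83 CPM per 100 CPM of summed markers in KO tumors, against 3.45 to 9.31 in KO normal colon. In WT mice the same ratio was 4.50 to 6.32 in tumors, against 6.5 to 10.05 in normal colon. KO and WT tumors overlapped on this scale, the overlap being mouse KO-2904 (4.83) above mouse WT-2988 (4.50). The mean log2 difference between tumors, KO minus WT, was -0.996. The ratio was lower in the tumor than in the normal tissue in 8 of 8 mice. It was chosen after its values were seen and is given without a test.

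Adjacent normal colon gave no call between the genotypes, beside 0.00584% of all genes tested. The 2 genotypes overlapped there for all 7 genes, whereas 1.59% of all genes tested were separate with KO higher and 1.4% with KO lower. The log2 differences, KO minus WT, were 0.46 ± 0.70 for Cxcl10, -0.14 ± 0.86 for Cxcl9, -0.31 ± 0.63 for Cxcl11 and -0.09 ± 0.50 for Cxcr3 (SE). Ifng differed by 1.94 ± 1.45, with a 95% interval of -1.14 to 5.03, too wide to limit the difference. For Ifngr1 and Ifngr2 they were -0.12 ± 0.17 and -0.04 ± 0.15. No member had an unadjusted edgeR p below 0.05, and DESeq2 and limma also called 0 members.

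Whether the tumor change itself differed between genotypes was tested for each gene as an interaction. No member was called by edgeR, beside 0% of all genes tested. At unadjusted p below 0.05 there were 3 members, all with a smaller or opposite change in KO mice: Cxcr3 (-2.80 ± 0.73, SE, edgeR adjusted p = 0.161), Cxcl10 (-2.72 ± 0.98, adjusted p = 0.259) and Cxcl11 (-2.07 ± 0.88, adjusted p = 0.325). The share of all genes that pass this unadjusted threshold is not given, so the count of 3 is no result about the members. DESeq2 called 1 member, Cxcr3 (-2.84, adjusted p = 0.0118), and limma called 0.

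Taking the mouse as the unit gave a second view of the same question. The tumor minus adjacent normal difference in Cxcr3, on the log2(CPM + 1) scale, was -1.85, -0.69, -0.40, -0.18 and -0.93 in KO mice, against 0.19, 1.18 and 1.21 in WT mice. It was negative in 5 of 5 KO mice and positive in 3 of 3 WT mice. For Cxcl10 it was 0.52, 1.62, 1.23, 0.78 and 3.29 in KO mice, against 4.55, 3.67 and 4.29 in WT mice. The WT values were thus above every KO value for both genes. For Cxcl11 it was 0.54, 0.05, -0.04, -0.08 and 0.64 in KO mice, against 2.34, 1.10 and 1.22 in WT mice. For Cxcl9 it was 0.72, 2.42, 1.31, 1.87 and 3.22 in KO mice, against 3.54, 3.72 and 5.04 in WT mice.

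The genotypes did not overlap in these differences for Cxcl9, Cxcl10, Cxcl11 or Cxcr3. The mean difference, KO minus WT, was -2.19, -2.68, -1.33 and -1.67, each with an exact two-sided permutation p of 0.0357. With p as 2 times the smaller tail, that is the smallest that 56 splits of the mice can give. Ifng differed by -0.85 (exact p = 0.0714), Ifngr1 by -0.21 (exact p = 0.321) and Ifngr2 by -0.27 (exact p = 0.179). These 7 p-values are not adjusted. The share of all genes whose per-mouse differences separate the genotypes is not given. The number of members that did so is therefore no result about the axis. The fold changes understate those of low genes, since 1 CPM was added.

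**Figure D3:**
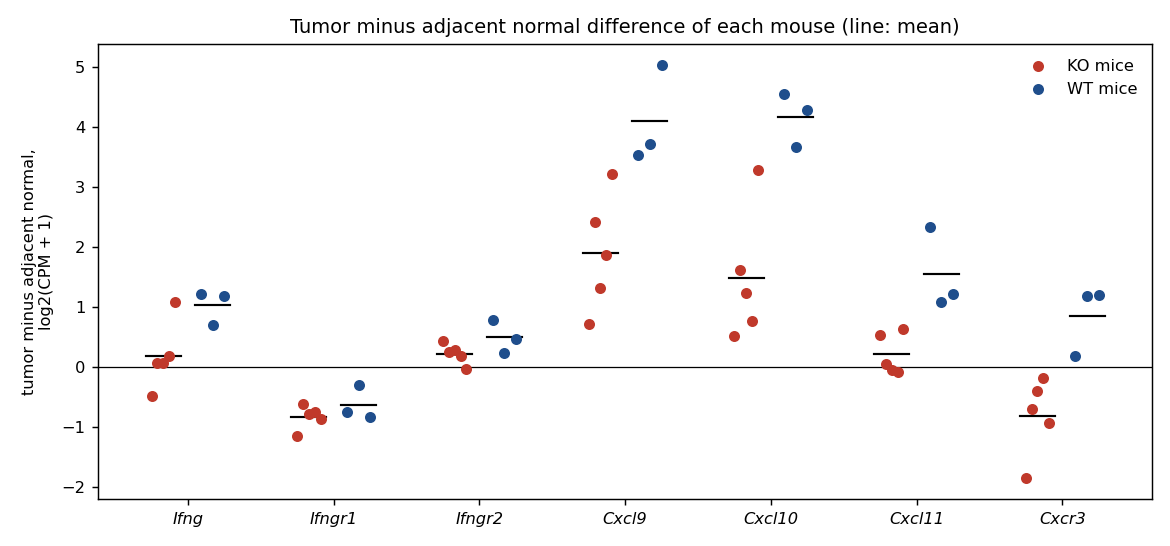
Tumor minus adjacent normal difference of each mouse on the log2(CPM + 1) scale (vertical axis) for the 7 genes, with KO mice left and WT mice right. Lines are means. For Cxcr3 all 5 KO mice lie below 0 and all 3 WT mice above it.

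Within KO tumors, ligand and receptor ranked differently. Mice KO-2901 and KO-3883 had the highest Cxcl9 (48.5 and 81.4 CPM), Cxcl10 (19.0 and 51.8 CPM) and Ifng (0.449 and 1.48 CPM) of the 5 KO tumors, and the lowest Cxcr3 (0.183 and 0.403 CPM). These Cxcr3 levels rest on 13 and 18 counts, and that of mouse KO-2902 (0.438 CPM) on 23, so the order in Cxcr3 is uncertain. The T cell marker sums of mice KO-2901 and KO-3883 were 13.7 and 14.5 CPM. Their tumor libraries also carry cage labels that differ from that of the other 3. The normal library of mouse KO-2901, however, carries the same label as those 3. The tumor and normal labels of this mouse differ only by swapped digits and may name the same cage. The part of the cage was not tested.

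The adjacent normal library of mouse KO-2901 was the highest of the KO normal libraries for Ifng, Cxcl9, Cxcl10 and Cxcr3. The same library had 58.8 CPM of T cell markers, where the 5 KO normal libraries had a median of 17.9 CPM, and 239 CPM of B cell markers, where the median was 40.3 CPM. The part of these cells in its high values was not tested.

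**Figure D4:**
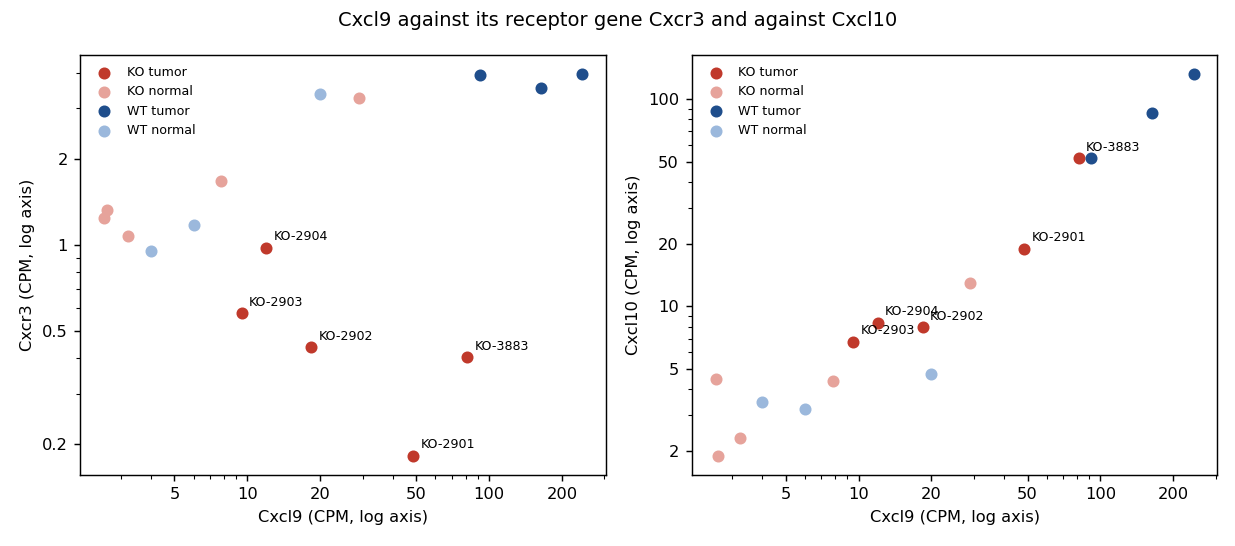
Cxcr3 (left) and Cxcl10 (right) against Cxcl9, in CPM on log axes, with 1 point per library and KO tumors named by mouse. Cxcl10 follows Cxcl9 through all 16 libraries, whereas the KO tumors sit at the low end of Cxcr3 whatever their Cxcl9.

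Over the 16 libraries, which share mice and tissue, the genes closest to the ligands were interferon-inducible GTPases. Pearson's r of log2(CPM + 1) with Cxcl9 was 0.98 for Tgtp2, 0.97 for Ifi47 and 0.97 for Gm4841, and with Cxcl10 it was 0.98 for Tgtp2, 0.98 for Tgtp1 and 0.97 for Igtp. Tgtp1 and Tgtp2 are near-identical copies, so their counts are uncertain. For Ifng the closest were Gm4841 (0.97), Irgm1 (0.94), an immunity-related GTPase, and Mlkl (0.94), an effector of necroptosis. Cxcr3 was closest to Lyz2 (0.97), a lysozyme of myeloid cells, Tifab (0.94) and Aif1 (0.94), which encodes the macrophage protein IBA1. Cxcl9 and Cxcl10 had an r of 0.96 with each other, but 0.42 and 0.39 with Cxcr3. These are descriptions over libraries of 4 groups.

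Genes upstream of interferon gamma were next. Over all genes tested, 9.53% were called higher and 16.1% lower in KO tumors against KO normal colon. In WT mice 12.1% were called higher and 12.9% lower, and between tumors 0.146% were higher and 1.58% lower in KO. The counts of calls in the 5 pathway lists stand beside these shares. Of 14 tested inducers, 1 was called higher and 1 lower in KO tumors against KO normal colon, and 3 higher and 1 lower in WT mice. Il18rap, a chain of the IL-18 receptor, rose in both genotypes (1.82 ± 0.38 in KO and 2.49 ± 0.50 in WT mice, log2, SE), while the cytokine gene Il18 fell in both (-1.48 ± 0.25 and -1.86 ± 0.32). Il18r1 (1.24, edgeR adjusted p = 0.0443) and Il12rb2, the second chain of the IL-12 receptor (1.72, adjusted p = 0.0487), rose in WT tumors. The WT count of genes that rose was 1 without mouse KO-3883, WT-2989 or WT-2990, 5 without mouse KO-2901 and 2 without the tumor library of mouse WT-2988, with library size scaling or with another filter. With the mouse as a replicate block it was 4, Il18r1 being lost (adjusted p = 0.121) and Il12rb1 and Runx3 added. In KO against WT tumors, 2 were called lower: Tbx21, which encodes T-bet, the Th1 transcription factor (-2.08 ± 0.48, edgeR adjusted p = 0.0399), and Il12rb1, a chain shared by the IL-12 and IL-23 receptors (-1.80 ± 0.41). The list's median was -1.44, beside 0.01 over all genes. No gene of it was called without mouse KO-2902, KO-2903 or KO-3883, without mouse WT-2988 (or its tumor library alone) or WT-2989, or with scaling by library size, and 1 was without mouse KO-2904 or mouse WT-2990.

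Among 10 genes of receptor signaling, 1 was called in KO tumors against normal colon, beside 25.7% of all genes tested. It was Socs3 (1.39 ± 0.42), a feedback inhibitor of cytokine receptors. In WT tumors 3 rose, among them Socs1, the main feedback inhibitor of this receptor (3.03 ± 0.69), and Socs3 (1.97 ± 0.56, log2, SE). The WT count was 2 without mouse WT-2988 or WT-2990, and the KO count was 0 higher without mouse KO-2902 or KO-3883. With the mouse as a replicate block the WT count was 4, Ciita, the class II transactivator gene, being added (adjusted p = 0.0261). Between KO and WT tumors the median was -0.77. There edgeR and limma called 0 of the 10, with 6 at an unadjusted edgeR p below 0.05, DESeq2 called 3, and the block called 1 (Ciita, -1.77, adjusted p = 0.0460).

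Genes that interferon gamma induces were examined next. Of 29 interferon gamma-induced effectors, 4 rose and 1 fell in KO tumors against KO normal colon (median 0.48), whereas 21 rose and 0 fell in WT mice (median 1.98). The medians over all genes tested were 0.00 and -0.01. In KO tumors Gbp9 (1.28 ± 0.32), Tgtp1 (2.49 ± 0.76) and Gbp4 (1.35 ± 0.46), all interferon-inducible GTPases, rose, and Gbp2b fell (-1.78 ± 0.66, log2, SE). Gbp2b was no longer called once the mouse was blocked (adjusted p = 0.104) or mouse KO-2901 was left out (-0.998, adjusted p = 0.129). In WT tumors the smallest p-values were those of Ido1, which encodes a tryptophan-degrading enzyme (3.24 ± 0.60), Gbp9 (2.19 ± 0.43), Gbp4 (2.85 ± 0.63) and Tgtp1 (5.01 ± 1.10). The WT count was 15 without the tumor library of mouse WT-2988, and 16, 14 and 10 without mice WT-2988, WT-2989 and WT-2990. The KO count of genes that rose was 8 without mouse KO-2901, 2 without mouse KO-2902 or KO-2904 and 1 without mouse KO-3883.

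Between KO and WT tumors 7 of the 29 were called, all lower in KO, and the fitted difference was negative for all 29 (median -1.43). Ido1 was at 15.7 to 50.3 CPM in KO tumors, against 200 to 320 CPM in WT tumors (-3.21 ± 0.50, log2, SE, edgeR adjusted p = 0.0203). Psmb9, a subunit of the immunoproteasome, was at 16.95 to 48.8 CPM, against 81.2 to 225 CPM (-2.12 ± 0.45). The class II antigen presentation gene H2-Eb1 (-2.02 ± 0.45) and the transcription factor gene Batf2 (-1.44 ± 0.32) were also lower. The count was 0 without mouse KO-2902 or KO-2903, mouse WT-2989 or only the tumor library of mouse WT-2988, and 1 without mouse KO-3883 or mouse WT-2988. It was 3 without mouse KO-2904, 1 with scaling by library size and 19 among KO mice of 1 cage label. That subset leaves out mice KO-2901 and KO-3883, whose tumors had the highest Cxcl9, Cxcl10 and Ifng of the KO tumors. The share of all genes called in it is not given.

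**Figure D5:**
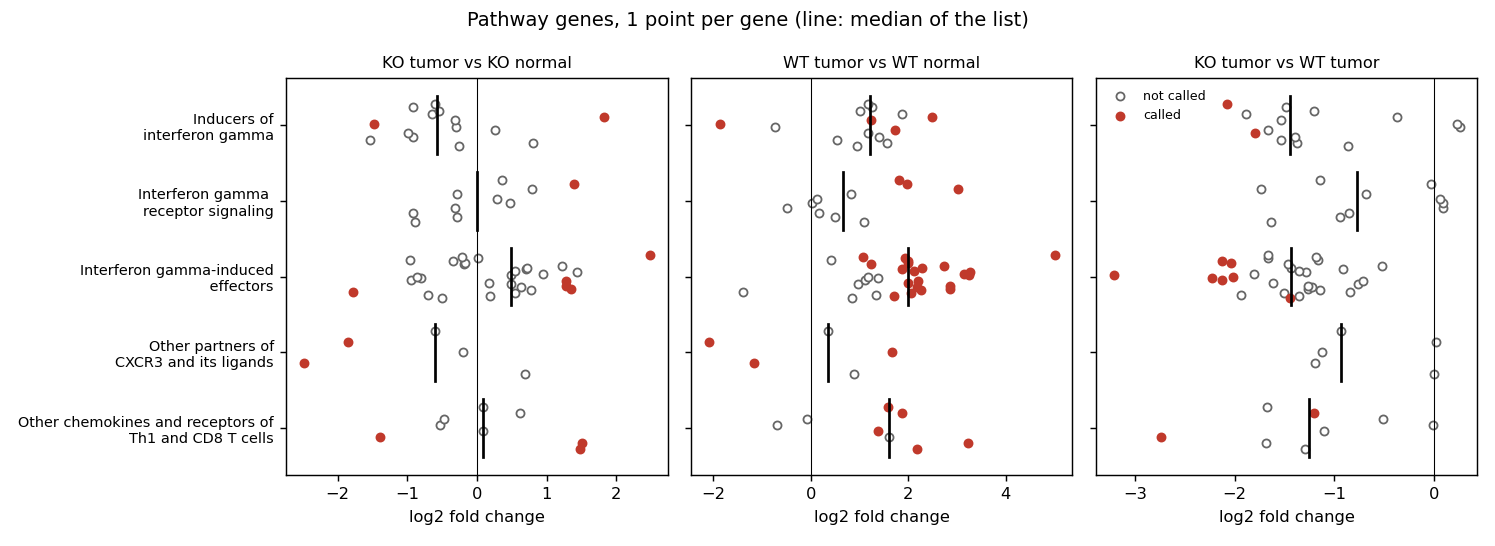
edgeR log2 fold changes (horizontal axis) of the genes of 5 pathway lists in 3 comparisons, 1 point per gene, called genes filled, with a line at the median of each list. The median of the induced effectors was 0.48 in KO and 1.98 in WT mice between tumor and normal tissue, and -1.43 between KO and WT tumors.

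Of 5 genes listed as other partners of CXCR3 and its ligands, 2 fell in KO tumors against KO normal colon, and 2 fell and 1 rose in WT mice. The list includes Cxcl12 and Cxcr4, a ligand and receptor pair of their own, so these counts are not those of CXCR3 partners alone. Dpp4, the peptidase that trims these chemokines, fell by 1.86 ± 0.33 in KO and 2.09 ± 0.43 in WT tumors, and Cxcl12 by 2.49 ± 0.32 and 1.16 ± 0.39 (log2, SE). Cxcr4, the receptor of CXCL12, rose in WT tumors (1.67 ± 0.39). Without mouse WT-2988 or its tumor library alone, or without WT-2990, Cxcl12 was not called in WT mice. Between KO and WT tumors edgeR and limma called 0 of the 5, with 3 at an unadjusted edgeR p below 0.05. DESeq2 called 2, and 1 was called without mouse KO-2904 or with the mouse as a replicate block (Cxcl12, -1.35, adjusted p = 0.0444), all lower in KO.

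Of 8 other chemokines and receptors of Th1 and CD8 T cells, 2 rose and 1 fell in KO tumors against KO normal colon, and 5 rose in WT mice. Ccl3 and Ccl4, chemokines that attract T cells and myeloid cells, rose in KO (1.48 ± 0.40 and 1.503 ± 0.55) and WT tumors (2.17 ± 0.52 and 3.23 ± 0.75, log2, SE), and Cxcl16 (1.86 ± 0.31) and its receptor gene Cxcr6 (1.59 ± 0.50) rose in WT tumors. Ccl5 fell in KO tumors (-1.39 ± 0.49, edgeR adjusted p = 0.0295). It was not called with the mouse as a replicate block (-1.28, adjusted p = 0.0698), without mouse KO-2901 (-0.715, adjusted p = 0.225) or KO-2903 (-1.29, adjusted p = 0.0880), or with KO mice of 1 cage label (-0.752, adjusted p = 0.308). Between KO and WT tumors 2 were lower, Ccl5 (-2.74 ± 0.55, edgeR adjusted p = 0.0260) and Cxcl16 (-1.21 ± 0.27, adjusted p = 0.0362), at 0.758 to 2.69 CPM in KO, against 8.29 to 12.1 CPM in WT tumors for Ccl5. No gene of the list was called there without mouse KO-2902, KO-2903 or KO-3883, without mouse WT-2988 (or its tumor library alone) or WT-2989, or with scaling by library size, and 1 was without mouse KO-2904. The WT count against normal colon was 3 without mouse WT-2989 or WT-2990, and the KO count of genes that rose was 1 without mouse KO-2902, KO-2903 or KO-2904. Between the normal tissues edgeR, DESeq2 and limma called 0 genes of the 5 pathway lists, and 0 had an unadjusted edgeR p below 0.05. For the interaction edgeR and limma called 0 and DESeq2 called 7, all lower in KO mice, and 37 of 66 had an unadjusted edgeR p below 0.05. Counts at unadjusted p, here and above, are given without the share of all genes that pass it. They are no result about the members or the lists, which were chosen with earlier results known.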

How the data were processed

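Tumor and adjacent normal RNA was sequenced from 8 mice (16 libraries). The authors trimmed reads with fastp 0.20.0 and quantified them with Salmon 1.4.0 against a Gencode mouse transcriptome (release not settled; 11 of 19574 gene ID versions matched release M21). The deposited values used are expected counts per gene, as the authors estimated them with Salmon, and were rounded to whole numbers. Size-factor normalized tables and columns of the authors' own comparisons (fold changes, p-values) were not used, nor were 64 other columns of per-sample values that map to no mouse here. The counts were analysed in R 4.3.3 with edgeR 4.0.16 (TMM, filterByExpr with a minimum count of 10, quasi-likelihood test, 4 groups in 1 fit without a block). DESeq2 1.42.0, limma 3.58.1, other normalizations, filters, a mouse block and left-out mice were alternatives. The mouse block was a mouse term in edgeR for tumor against normal tissue and the interaction, and limma with a within-mouse correlation between genotypes.

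The members and the 5 pathway and 12 marker lists were chosen with earlier results of these data known. Named genes were the members, up to 4 genes per list with the smallest p among those called in each comparison (the 2 with the highest mean CPM where a list had none), and the 3 genes closest to Ifng, Cxcl9, Cxcl10 and Cxcr3 by correlation. A gene that this rule names is not reported here. Per-mouse differences on log2(CPM + 1) were tested by an exact two-sided permutation test in scipy 1.17.1, with p as 2 times the smaller tail. Counting splits by the size of the difference instead was added after the first results were seen. Tumor and normal libraries of a mouse come from the same animal, so the mouse number pairs them. Deviations from the group means correlated within mice at -0.28 to 0.35. Mice are the replicates. Promoter motifs, ratios within a library and the subset of KO mice by cage were chosen after values were seen. Scripts were tested on simulated data.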

Additional observations from a re-analysis of the deposited data

Results flagged for a closer look

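Several single libraries lay far from the rest of their group of 5, by a gap rule on CPM. Chance meets this rule in about 1 in 20 groups if values are normally distributed, which CPM need not be. All flags came from mice KO-2901 and KO-3883, over genes that vary together in part. Among KO tumors these were mouse KO-3883 for Ifng (1.48 CPM) and for Cxcl10 (51.8 CPM). Among KO normal libraries mouse KO-2901 was far above the others for Ifng (1.01 CPM), Cxcl9 (29.0 CPM), Cxcl10 (13.0 CPM) and Cxcr3 (3.26 CPM). Groups of 3 could not be checked this way.

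The tumor minus adjacent normal difference per mouse differed between KO and WT mice for 4 genes on the log2(CPM + 1) scale, each with an exact permutation p of 0.0357. The differences, KO minus WT, were -2.19 for Cxcl9, -2.68 for Cxcl10, -1.33 for Cxcl11 and -1.67 for Cxcr3. All 5 KO mice lay below all 3 WT mice for each of these genes, while the edgeR interaction called none of them. The share of all genes with such a separation is not given.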

How the results depend on the processing

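Of the member fold changes recomputed under the alternatives, 592 kept their direction and their side of the call, 28 lost and 15 gained the call, and 21 changed sign, all but 2 of them between the normal tissues. Counts of members called stayed within 1.5 times in 75 cases and moved in 19. In WT tumors against normal colon 2 to 4 members were called as each mouse was left out, and in KO mice 1 to 3. Between KO and WT tumors (2 in the main analysis) the count was 1 with library size scaling, without the low-count filter, with only the groups compared or without the Rn18s row, 0 without the tumor library of mouse WT-2988, 4 with the mouse as a replicate block and 4 with KO mice of 1 cage label, and 0 to 1 as each mouse was left out. DESeq2 called 1 member for the interaction. Over all genes tested, KO against WT tumors gave 296 calls with edgeR, 739 with DESeq2, 46 with library size scaling, 14 without the tumor library of mouse WT-2988 and 1 to 295 as each mouse was left out. The counts of all genes called between tumors with the block and with KO mice of 1 cage label are not given. The interaction gave 0 calls, 349 with DESeq2 and 1 with the block. Library size scaling moved the median of all genes by 0.31 (log2) between tumors, 0.22 between normal tissues, 0.11 in KO and 0.02 in WT mice.

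Sign changes among tumor comparisons were those of Ifng in KO mice (-0.43 to 2.75 as each mouse was left out) and Cxcl11 (-0.13 with 1 cage label, a subset chosen after seeing the data). Between normal tissues, where no member was called, library size scaling gave 0.0902 for Ifngr1, 0.18 for Ifngr2, 0.12 for Cxcl9 and 0.16 for Cxcr3. The 1 cage subset gave -1.15 for Ifng, 0.0361 for Ifngr2 and -0.39 for Cxcl10, limma gave 0.0107 and the block 0.0581 for Cxcr3. Leaving out each mouse gave -0.12 to 0.0224 for Ifngr2, -1.29 to 0.85 for Cxcl9, -0.21 to 0.67 for Cxcl10 and -0.46 to 0.69 for Cxcr3. The per-mouse differences between genotypes were -2.52 to -1.72 for Cxcl9, -3.13 to -2.44 for Cxcl10, -1.56 to -0.93 for Cxcl11 and -2.01 to -1.41 for Cxcr3 as each mouse was left out, with exact permutation p-values of 0.0571 or 0.0952, the smallest those numbers of mice allow. Counting splits by the size of the difference, added after seeing the data, gave exact p-values of 0.0179 for Cxcl10, Cxcl11 and Cxcr3 and 0.0357 for Cxcl9. With the block 18 calls of pathway genes changed (15 gained, 3 lost), and between genotypes the block was also a change of tool. The 3 lost calls, and the changed calls of members, stand beside their results. Low counts limit Ifng, Cxcl11 and, in KO tumors, Cxcr3, and 3 WT mice limit every comparison between genotypes. The cause of these changes was not tested.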
